A study of Mus musculus with 9 samples.

Results

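Plasma cells are the antibody-secreting end stage of the B-cell lineage, and 290 of the 39051 bone marrow cell barcodes kept here (0.743%) were plasma cells. They were picked by raw unique molecular identifiers (UMIs, each a tagged RNA molecule): at least 10 of Jchain, at least 3 of Mzb1, at least 1 of Xbp1 and none of Siglech, in barcodes with at least 1000 UMIs and 500 genes and at most 10% mitochondrial UMIs. Jchain encodes the joining chain that links antibody units into IgM and IgA polymers, Mzb1 an endoplasmic reticulum chaperone of antibody assembly, and Xbp1 the transcription factor that enlarges the secretory apparatus. Siglech is a surface lectin of plasmacytoid dendritic cells, which share several plasma cell genes. These 4 genes chose the cells, so their levels are given only as a description.

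When a B cell becomes a plasma cell, it switches off most genes of B-cell identity, expands its endoplasmic reticulum and devotes most of its RNA to a single heavy and a single light antibody chain. The heavy chain constant gene in use gives the class of the antibody (IgM from Ighm, IgA from Igha, IgG from the Ighg genes), and the light chain is kappa or lambda. Bone marrow shelters long-lived plasma cells. In the lupus-prone NZBWF1 hybrid, plasma cells that secrete autoantibodies are a known feature of the later disease.

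The material was femoral bone marrow from female mice 9 to 10 weeks old: 3 of the inbred NZB strain, 3 of the inbred NZW strain and 3 of NZBWF1, the first-generation offspring of an NZB and an NZW parent. None carried a transgene or received a treatment, red blood cells were lysed before loading, and every mouse was a separate droplet library of 3′ RNA ends. The 9 libraries held 8106539 to 18663189 UMIs in 2455 to 5684 kept barcodes, and the plasma cells contributed 54239 (NZW mouse 1) to 1207501 (NZBWF1 mouse 3) of them. NZW mouse 1 gave 6 plasma cells, under the minimum of 10, and was left out of fits and tests on plasma cell RNA, which therefore rest on 8 mice. NZB mice 1, 2 and 3 gave 14, 43 and 43 plasma cells, NZW mice 2 and 3 gave 10 each, and NZBWF1 mice 1, 2 and 3 gave 15, 50 and 99. No cell barcode sequence was shared between libraries among the plasma cells, against 342 shared among all kept barcodes.

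The Jchain limit fell in an empty range. Of the 289 barcodes that met every other limit but failed this one, 281 had no Jchain UMI, 8 had 1 and none had 2 to 9. Among plasma cells the lowest had 18, the median 515 and the highest 1343. Only 9 plasma cells had fewer than 100 Jchain UMIs. The Mzb1 limit was softer: 19 barcodes failed it alone, with at most 2 Mzb1 UMIs and a median of 403 Jchain UMIs, beside plasma cells with a minimum of 3 and a median of 13. The Xbp1 limit alone removed 15 barcodes without an Xbp1 UMI, 7 of them from NZB mouse 1 and 5 from NZB mouse 2, with a median of 215 Jchain UMIs. Siglech alone removed 4 barcodes with 2 to 5 UMIs, and 6 more passed the gene limits but had too few UMIs or genes.

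Most markers outside the rule went with the label. Derl3, a factor that draws misfolded proteins out of the endoplasmic reticulum, reached 136 to 399 CPM (UMIs of the gene per 1000000 UMIs of all plasma cells of a mouse), against 0 to 14.1 CPM in B cells of the same mice that held Ighd, Ms4a1 and Cd79a UMIs (called Ighd B cells here). Sdc1, the surface proteoglycan CD138 used to sort plasma cells, was at 96.0 to 192 CPM against 0 to 28.2 CPM, and 68.3% of plasma cells had a UMI of it. Tnfrsf17 encodes BCMA, the receptor for the survival ligand APRIL, and was at 98.5 to 277 CPM, with UMIs in the Ighd B cells of 1 mouse alone (19.1 CPM). The transcription factors Irf4 (23.2 to 166 CPM) and Prdm1 (8.19 to 106 CPM), which drive the plasma cell programme, were detected in 32.8% and 27.6% of the cells. Prdm1 was at 0 to 4.59 CPM in Ighd B cells, but Irf4 was at 0 to 51.5 CPM there and overlapped. Its CPM was lower in plasma than in Ighd B cells of NZW mouse 3 and NZBWF1 mouse 3. Antibody genes took 73.3% and 70.9% of plasma cell UMIs in those mice, which lowers the CPM of other genes. In Ighd B cells the antibody constant genes came to at most 39066.5 CPM. Irf4 per UMI of non-antibody genes was not compared. A plasma cell yielded a median of 10244 UMIs and other kept barcodes 2299.

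RNA of other cells was scarce in most plasma cells. The 9 B-cell markers summed to 332 to 858 CPM in plasma cells and 4893 to 10840 CPM in Ighd B cells. The 5 monocyte markers summed to 0 to 52.2 CPM, the 5 T-cell markers to 0 to 18.1 CPM, the 5 NK-cell markers to 0 to 81.5 CPM, the 5 erythroid markers to 9.60 to 118 CPM, and the 4 genes of granulocyte-monocyte precursors to 0 to 271 CPM. Of the 4 mast cell markers 1 had any UMI and of the 4 stromal markers 2. The 6 plasmacytoid dendritic cell markers came to 133 to 518 CPM, with Siglech at 0 by the rule. The exception was the 6 neutrophil genes, at 126 to 10412 CPM in plasma cells and 22093 to 63555 CPM in Ighd B cells. In 15 plasma cells genes of another lineage took over 1% of UMIs (1.28% to 26.6%; at most 0.615% in the rest), and these 15 held 88.6% of the neutrophil-gene UMIs of all plasma cells. They came from 6 mice, 2 and 4 in NZB mice 2 and 3, 1 each in NZW mice 2 and 3, and 4 and 3 in NZBWF1 mice 2 and 3. Jchain UMIs also occurred in 0.274% to 5.40% of neutrophil barcodes (median depths of 2316 to 2715 UMIs), and 5 of these neutrophil barcodes over all mice reached 10 Jchain UMIs.

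Plasma cells made up a larger share of marrow cells in NZB and NZBWF1 than in NZW mice, without overlap. In NZB mice 1, 2 and 3 the shares were 0.570%, 0.842% and 1.31% of kept barcodes. In NZW mice they were 0.139%, 0.194% and 0.202%, and in NZBWF1 mice 0.585%, 0.901% and 1.74%. The lowest NZB and NZBWF1 mice had 95% Clopper-Pearson intervals of 0.312% to 0.955% and 0.328% to 0.962%, and the highest NZW interval ended at 0.371%, so those lowest intervals and the NZW ones overlapped slightly. Intervals cover counting error only.

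The strain means were 0.907% ± 0.374 for NZB, 0.179% ± 0.0343 for NZW and 1.08% ± 0.598 for NZBWF1 (SD, n = 3 each). An exact permutation test over the 9 mice gave p = 0.0857 (two-sided, 280 partitions, smallest possible 0.00357), and NZW differed from either other strain with exact p = 0.1, the smallest that 3 mice against 3 allow. When edgeR's quasi-likelihood model of cell numbers took the place of the permutation test, the excess over NZW was 2.33 on the log2 scale for NZB (SE 0.51, p = 0.00288) and 2.59 for NZBWF1 (SE 0.50, p = 0.00148), while NZBWF1 and NZB differed by 0.27 (SE 0.44, p = 0.569). In the same model, again in place of the permutation test, NZBWF1 exceeded the mean of the parents' log values by 1.43 (SE 0.39, p = 0.00842). The model took no account of mouse numbers, and in each of the 3 same-numbered pairs the share was higher in NZBWF1 than in NZB. Without the Xbp1 limit the first 2 of these pairs turned, at 0.855% and 0.940% in NZB mice 1 and 2 against 0.585% and 0.919% in NZBWF1 mice 1 and 2. Without NZBWF1 mouse 1 the exact permutation p over strains was 0.0357, and without any 1 other mouse it lay between 0.0607 and 0.175. With the mouse number as a replicate block it was 0.0278, the smallest that the block test can give. Set against the Ighd B cells of the same mouse, plasma cells numbered 26.9, 226 and 82.7 per 100 in NZB, 2.88, 5.29 and 5.92 in NZW, and 9.87, 53.8 and 56.9 in NZBWF1. The log2 of that ratio averaged -0.33 ± 1.54, -4.48 ± 0.56 and -1.68 ± 1.44 (SD, n = 3 each; exact permutation p = 0.0214), and no NZW mouse reached the other strains. The Ighd B cells themselves numbered 52, 19 and 52 in NZB, 208, 189 and 169 in NZW and 152, 93 and 174 in NZBWF1.

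Most plasma cells chosen by the rule made IgM with a kappa light chain. The rule required Jchain, whose product joins IgM and IgA, so the class shares hold for cells with at least 10 Jchain UMIs. Classes of barcodes under that limit were not examined, and IgG cells with little Jchain would be missed. Each cell was given the class that held at least 50% of its heavy chain constant UMIs, with at least 10 such UMIs required: 261 of 290 cells were IgM (90%), 18 IgA (6.21%) and 10 IgG, of which 4 used Ighg1, 2 Ighg2b and 4 Ighg2c. The remaining cell had 4 heavy chain UMIs and no class, and no cell was called for Ighd, Ighe or Ighg3, which for counting error alone allows a share of up to 1.03% for each. The calls were sharp: in 283 cells a single class held over 95% of the heavy chain UMIs, and the lowest share was 84.8%. Kappa was in use in 282 cells and lambda in 8.

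The classes fell unevenly over the strains. NZB plasma cells were 92 IgM, 8 IgA and 0 IgG of 100. With the cells of the 3 mice pooled, and for counting error alone, that 0 allows up to 3% IgG among cells that met the Jchain limit. Of the 26 NZW cells 16 were IgM, 6 IgA and 4 IgG, all 4 IgG cells from mouse 2. Of the 164 NZBWF1 cells 153 were IgM, 4 IgA and 6 IgG, with 1, 4 and 1 IgG cells in mice 1, 2 and 3. IgA was held by 1 of 14, 3 of 43 and 4 of 43 cells of NZB mice, by 3 of 6, 1 of 10 and 2 of 10 cells of NZW mice, and by 1 of 15, 0 of 50 and 3 of 99 cells of NZBWF1 mice.

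As a share of each mouse's plasma cells, IgA came to 7.81% ± 1.30 in NZB (SD, n = 3), 15.0% ± 7.07 in NZW (n = 2) and 3.23% ± 3.34 in NZBWF1 (n = 3), with NZW mice highest and NZBWF1 mice lowest. An exact permutation test over the 8 mice gave p = 0.00357, the smallest it can give, and 0.0393 after Benjamini-Hochberg adjustment over 11 measures. The 3 strains did not overlap, yet the NZW values rest on 3 IgA cells in all. The call was lost when the Xbp1 limit was dropped (adjusted exact p = 0.299). It was also lost when NZW mouse 2 fell out under a limit of 20 Jchain UMIs and on leaving out any 1 mouse (0.0524 to 0.314). The same held with the mouse number as a replicate block (0.229). With fewer mice or with blocks the test has fewer partitions and its smallest p exceeds 0.00357. Losses in those settings therefore do not measure how firm the call is. IgM was at 92.2% ± 1.30, 65% ± 21.2 and 90.9% ± 4.71 (exact permutation p = 0.0250, adjusted 0.138), and IgG differed with exact permutation p = 0.136 (adjusted 0.373). NZW mouse 1, outside this test, had 3 IgM and 3 IgA cells.

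UMIs of the rarer constant genes came from very few cells. The 430 Ighg2c UMIs of NZBWF1 mouse 1 lay in 1 cell, and 1 cell held 898 of the 902 in mouse 3. In NZBWF1 mouse 2, 819 of 1189 lay in 1 cell. Ighg2c, Ighg2b and Ighg1 had no UMI in any NZB mouse, and Ighg2c had 3, 5 and 0 UMIs in NZW mice 1, 2 and 3. Ighg1 showed the same make-up, with 1378 of 1379 UMIs of NZBWF1 mouse 2 in 1 cell. In the fit across 1583 genes none of these constant genes was called between strains, Ighg2c included (adjusted p = 0.283 for NZBWF1 against NZB, edgeR).

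The kappa variable segments, of which each B cell joins one to its light chain, showed which plasma cells shared a segment. The libraries read the 3′ end of transcripts, far from the variable region: the median plasma cell had 5 Igkv UMIs and no Ighv UMI, and 143 of 290 cells had any Ighv UMI. With at least 5 Igkv UMIs and at least 50% of them from one gene, 141 cells were assigned to 32 genes. Igkv12-89 led with 42 cells in 6 mice, then Igkv14-126 with 25 cells in 5 mice and Igkv20-101-2 with 13 cells in 5 mice. Of the Igkv12-89 cells 27 came from NZBWF1 mouse 3, and without that mouse the order turned, with 15 Igkv12-89 and 18 Igkv14-126 cells. Igkv4-51 was called in 6 cells, all from NZBWF1 mouse 3, and each of the 6 also held Igkv12-89 UMIs. In that mouse the 50% rule thus assigned cells with UMIs of both genes to one or the other. The ends of 3 of these segments are printed because the counts by mouse turn on telling them apart. They are the last 60 bases of each V segment in the GRCm38 (mm10) genome with GENCODE vM21 gene models, and the capitals mark the codon of the conserved cysteine near the end of the segment. Igkv12-89 lies at chr6:68834846-68834905 on the minus strand, Igkv4-51 at chr6:69681406-69681465 on the minus strand and Igkv14-126 at chr6:67896583-67896642 on the plus strand.
Igkv12-89: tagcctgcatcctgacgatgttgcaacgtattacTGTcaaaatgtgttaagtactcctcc
Igkv4-51: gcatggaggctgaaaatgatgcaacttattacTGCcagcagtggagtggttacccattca
Igkv14-126: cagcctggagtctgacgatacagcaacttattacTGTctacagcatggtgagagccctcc

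NZBWF1 mouse 3 stood apart in this readout. In that mouse 58 of 99 plasma cells (58.6%) had an Igkv12-89 UMI, 49 (49.5%) an Igkv4-51 UMI and 48 (48.5%) UMIs of both. In the other 8 mice 25 of 191 plasma cells had an Igkv12-89 UMI, and 0 had a UMI of Igkv4-51. That count allows up to 1.57% of cells with such a UMI by counting error alone, in cells pooled from 8 mice, and at the shallow Igkv coverage it does not limit the use of the gene. Over the whole segments 212 of 331 aligned bases of the pair (64.0%) were identical, with 9 gaps, and how the reads of these cells map to either gene was not tested. The 48 cells with both genes had 395 Igkv UMIs and none from any other Igkv gene. All 48 were IgM and kappa. The 40 cells of the mouse with neither gene had 194 Igkv UMIs from other segments, spread over 35 cells, and 36 were IgM.

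A heavy chain segment was uneven in the same mouse. Ighv1-62, annotated by GENCODE as a variable pseudogene at chr12:115371986-115372433 on the minus strand, had UMIs in 16 of the 59 cells with either kappa gene and in 0 of the 40 with neither. It was not limited to them: in the other mice 7 plasma cells had an Ighv1-62 UMI, 3 with Igkv12-89 and 4 with neither kappa gene, among them 3 of the 14 cells of NZB mouse 1. Among the other 5585 kept barcodes of the mouse, 9 had an Igkv12-89 UMI and 4 an Igkv4-51 UMI. A common origin of these cells was not tested, and no sequence of their rearranged chains was used here. Without the 59 cells the plasma cell share of the mouse was 0.704% instead of 1.74%, within the range of the other NZBWF1 mice, and the exact permutation p for the share by strain moved from 0.0857 to 0.0250. The IgA call was lost without them (adjusted exact p = 0.0786).

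Other mice differed in how many segments they used. NZBWF1 mouse 2 had 33 called cells over 15 genes, with Igkv12-89 in 7, and NZB mouse 2 had 19 over 7 genes, with Igkv14-126 in 6. In NZW mouse 3, 5 of 7 called cells (71.4%) used Igkv14-126, the highest share of a single gene among the mice. NZBWF1 mouse 3 had 50 called cells over 10 genes, with Igkv12-89 in 27 (54.0%).

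Antibody genes filled most of the RNA of these cells in all strains. Their share of UMIs was 68.9%, 67.5% and 66.5% in NZB mice, 68.8%, 51.4% and 73.3% in NZW mice and 68.9%, 66.8% and 70.9% in NZBWF1 mice (exact permutation p = 0.714 over the 8 mice with at least 10 cells, adjusted 0.786). NZW mouse 2 was lowest. Igkc, the kappa constant gene, alone stood at 374837 to 554261 CPM and Ighm at 53236 to 167130 CPM. Jchain, a gate gene, was at 40651 to 64031 CPM, Mzb1 at 1240.4 to 4362 CPM and Xbp1 at 576 to 1475 CPM.

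Several genes of the secretory machinery had ranges over the mice above those of Ighd B cells. Of the chaperones of the endoplasmic reticulum, Hspa5 (BiP, which holds unpaired antibody heavy chains) was at 525 to 1656 CPM against 186 to 439.6 CPM in Ighd B cells, and Hsp90b1 (GRP94) at 688 to 7379 CPM, highest in NZW mouse 2 and overlapping the 389.6 to 860.1 CPM of Ighd B cells. The disulfide isomerase Txndc5 was at 851 to 1917 CPM against 19.1 to 215 CPM in Ighd B cells. Sel1l and Edem1, parts of the pathway that degrades misfolded glycoproteins, reached 419.7 to 950.3 and 317 to 761 CPM, against 19.1 to 61.2 and 37.6 to 80 CPM. For translocation into the endoplasmic reticulum, Ssr4 was at 1367 to 2209.6 CPM against 202 to 305 CPM, and the signal peptidase subunit Sec11c at 778 to 2026 CPM against 216 to 359.7 CPM. The 31 genes of glycosylation and transport to the Golgi summed to 2571 to 7172 CPM and 2372 to 2878 CPM, and overlapped. These CPM include antibody UMIs, which were most UMIs of plasma cells, so the overlaps do not show like levels among the other genes. Levels without antibody UMIs were not compared with Ighd B cells. The genes of folding, degradation and translocation, without those of glycosylation and Golgi transport, were also summed. They took 684 ± 68.1 per 10000 UMIs of non-antibody genes in NZB (SD, n = 3), 661 ± 166 in NZW (n = 2) and 711 ± 42.2 in NZBWF1 (n = 3). That difference was within the spread of the mice (exact permutation p = 0.875).

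Fold over all other kept barcodes was ranked among genes with at least 100 UMIs in plasma cells, with gate and antibody genes left out. Tnfrsf17 led with 376-fold (149.6 against 0.398 CPM). Next came the calcium channel subunit Cacna1s (229-fold), then Derl3 (119.5-fold), Oosp1 (116-fold), Chst1, a sulfotransferase (113.5-fold), Serpina3f, a serine protease inhibitor with UMIs in 10.7% of the cells (68.8-fold), Prg2, the granule protein better known from eosinophils (54.9-fold), and Epcam, an adhesion molecule of epithelia (46.3-fold). Prdm1 stood at 34.1-fold and Ly6a, the surface antigen Sca-1, at 36.9-fold. Since the cells were chosen on genes that vary with these, the order is a description without a test.

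Few genes differed between the strains within plasma cells. Of 1583 genes tested on UMIs summed per mouse (edgeR quasi-likelihood, Benjamini-Hochberg adjusted p under 0.05), 16 were called between NZB and NZW (1.01% of those tested), 6 higher (0.379%) and 10 lower (0.632%) in NZB. Between NZBWF1 and NZB 3 were called (0.19%), between NZBWF1 and NZW 3 (0.19%) and between NZBWF1 and the mean of the parents' log values 2 (0.126%), all higher in NZBWF1. Unadjusted p under 0.05 was reached by 139, 101, 111 and 79 genes in that order, and DESeq2 called 18, 7, 5 and 7. The contrasts share mice, and the median log2 difference over all genes tested was 0.04, 0.01, 0.04 and 0.02. With the mouse number as a replicate block 7 genes were called between NZBWF1 and NZB and 7 against the parents. Without NZW mouse 2, NZW mouse 3 or NZBWF1 mouse 3 the 3 genes called between NZBWF1 and NZB became 8, 8 and 1. Those between NZBWF1 and NZW became 8 without NZW mouse 3 and 5 without NZBWF1 mouse 1. Those against the parents became 6 without NZB mouse 1 or NZW mouse 3, 7 without NZBWF1 mouse 1 and 4 without NZBWF1 mouse 2. In a sum over cells of a mouse, a gene low in every cell and a gene present in fewer cells cannot be told apart.

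The smallest p-values belonged to a pair of ferritin light chain genes. Ftl1 encodes the light subunit of the iron store ferritin. Ftl1-ps1 is a copy elsewhere in the genome that carries the abbreviation for a pseudogene and that GENCODE lists as protein coding. Ftl1 lies at chr7:45457944-45459884 on the minus strand and Ftl1-ps1 at chr13:74399694-74407346 on the plus strand (GRCm38, GENCODE vM21). Of 910 aligned transcript bases 906 (99.6%) were identical, and 2 of the 4 differences lie in the 549 coding bases. The last 90 coding bases of Ftl1 (chr7:45458110-45458199, minus strand) and their counterpart (chr13:74407063-74407152, plus strand) are printed to show how little separates them, with capitals at the bases that differ.
Ftl1: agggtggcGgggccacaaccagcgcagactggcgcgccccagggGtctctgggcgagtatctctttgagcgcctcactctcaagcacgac
Ftl1-ps1: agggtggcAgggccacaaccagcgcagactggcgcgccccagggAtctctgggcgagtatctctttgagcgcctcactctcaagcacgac

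In plasma cells Ftl1 stood at 1459, 1439.6 and 1219 CPM in NZB, 55.3, 59.2 and 18.1 CPM in NZW and 930.1, 721 and 689 CPM in NZBWF1. Ftl1-ps1 stood at 8.73, 3.2 and 11.8 CPM in NZB, 1549, 1775 and 869 CPM in NZW and 646, 594 and 539 CPM in NZBWF1. The strains did not overlap in either gene, with NZBWF1 between its parents. Ftl1 was higher in NZB than in NZW by 5.47 on the log2 scale (SE 0.31, adjusted p = 9.91e-10, edgeR) and Ftl1-ps1 lower (-7.04, SE 0.31, adjusted p = 4.67e-11). Against the mean of the parents' log values, NZBWF1 was higher in Ftl1 by 1.96 (SE 0.19, adjusted p = 9.32e-06) and in Ftl1-ps1 by 2.66 (SE 0.21, adjusted p = 6.49e-07). These were the 2 genes called in that contrast. Where the parents differ this much, a level midway between them lies above the mean of their log values. The sign of the contrast therefore does not show NZBWF1 above both parents, between which it lay in either gene.

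Added together, the pair did not pass the test between any strains. The sums were 1467, 1443 and 1231 CPM in NZB, 1604, 1834 and 887 CPM in NZW and 1576, 1315 and 1228 CPM in NZBWF1. The summed gene differed by 0.03 to 0.31 on the log2 scale (edgeR, adjusted p of 0.685 to 0.999). Ftl1 took 99.4%, 99.8% and 99% of the sum in NZB mice, 3.45%, 3.23% and 2.04% in NZW mice and 59.0%, 54.8% and 56.1% in NZBWF1 mice. Ighd B cells gave like shares, 99.3% to 100% in NZB, 3.69% to 4.60% in NZW and 53.7% to 56.1% in NZBWF1. Fth1, the heavy ferritin subunit, was at 334 to 813 CPM over all mice and was not called (lowest adjusted p = 0.879). Reads of such near-identical genes may be divided or dropped by the alignment, so the level of each gene by itself is uncertain.

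Ifitm2, an interferon-induced membrane protein that restricts viral entry, was nearly missing from NZB plasma cells. It was at 0, 12.8 and 28.3 CPM in NZB, 2544, 1287 and 1439.6 CPM in NZW and 936, 911 and 743 CPM in NZBWF1. All 3 strains were apart. The difference on the log2 scale was -6.20 for NZB against NZW (SE 0.58, adjusted p = 0.0025, edgeR) and 5.64 for NZBWF1 against NZB (SE 0.56, adjusted p = 0.0121). The latter call was lost on leaving out NZB mouse 2 (adjusted p = 0.186), NZBWF1 mouse 1 (0.0575) or NZBWF1 mouse 3 (0.0784). Ifitm2 has close relatives in its gene family, as do Ly6c2, Ly6a and H2-T23 in theirs, so their counts are uncertain where reads match a relative.

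Members of the Ly6 family of membrane-anchored surface proteins differed in opposite directions. Ly6c2, an antigen of monocytes and also of mature plasma cells, was at 0, 44.8 and 23.6 CPM in NZB, 1143, 414 and 289.7 CPM in NZW and 328, 782 and 398 CPM in NZBWF1. NZB mice were lowest, and NZW and NZBWF1 overlapped. The log2 difference was -3.50 for NZB against NZW (SE 0.63, adjusted p = 0.0487, edgeR) and 4.23 for NZBWF1 against NZB (SE 0.55, adjusted p = 0.025). The calls were lost in 12 of 26 and 10 of 28 other settings, among them without NZB mouse 3 (adjusted p = 0.170 and 0.166), NZBWF1 mouse 3 (0.0559 and 0.0692), NZW mouse 2 (0.355 and 0.145) or NZW mouse 3 (0.410 and 0.186).

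Ly6a, or Sca-1, a surface antigen of stem cells and activated lymphocytes, went the other way. It was at 2402, 2754 and 3271 CPM in NZB, 940.3, 799 and 697 CPM in NZW and 1647, 2282 and 1779 CPM in NZBWF1, without overlap. NZB exceeded NZW by 2.02 on the log2 scale (SE 0.22, adjusted p = 8.8e-05, edgeR) and NZBWF1 exceeded NZW by 1.5 (SE 0.22, adjusted p = 0.00396), a call lost with no scaling beyond the total (adjusted p = 0.135). By contrast with these levels, Ly6a in Ighd B cells was far lower and in another order: 9.39, 57.3 and 6.48 CPM in NZB, 104, 119 and 112 CPM in NZW and 67.6, 103 and 59.5 CPM in NZBWF1. Those NZB values rest on 5 UMIs in all, beside 139 in NZW and 67 in NZBWF1.

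Further genes called between NZB and NZW were smaller in size or sparse. Gm42031, a long intergenic noncoding RNA at chr8:85125872-85132289 on the minus strand, was at 306, 208 and 120.3 CPM in NZB, 0 in each NZW mouse and 76.6, 73.7 and 51.3 CPM in NZBWF1. Against a floor of 3 UMIs over the NZW group it was at least 10.5-fold higher in NZB (adjusted p = 0.00277, edgeR), a call lost at a minimum of 2000 UMIs and 1000 genes per cell, which left 1 NZW mouse (0.0543). H2-T23, which encodes the nonclassical MHC class I protein Qa-1, was lower in NZB, at 34.9, 64.0 and 49.5 CPM against 461, 266 and 190.1 CPM in NZW, with NZBWF1 between at 104, 117 and 119 CPM (-1.94 for NZB against NZW, SE 0.34, adjusted p = 0.0039, lost without NZW mouse 3 at 0.132). Bst2, or tetherin, which holds budding viruses at the membrane and also marks plasmacytoid dendritic cells, was at 61.1, 57.6 and 25.9 CPM in NZB and 221, 222 and 127 CPM in NZW. Its difference of -1.78 (SE 0.41, adjusted p = 0.0487, edgeR) lost its call in 15 of 26 other settings, among them leaving out NZB mouse 1 (0.0670), NZB mouse 3 (0.146), NZBWF1 mouse 1 (0.0512), NZW mouse 2 (0.179) or NZW mouse 3 (0.245).

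Among the other genes lower in NZB were the ribosomal protein genes Rps2 (341, 387 and 417 CPM against 903, 1922 and 715 CPM in NZW; -1.47, SE 0.20, adjusted p = 0.000411, edgeR) and Rpl21 (-0.99, adjusted p = 0.0207). Rps3a1, of the same small ribosomal subunit as Rps2, was higher (1703, 1635 and 1554 CPM against 756, 1287 and 579 CPM; 1.08, SE 0.17, adjusted p = 0.00134, edgeR). Genes for ribosomal proteins have many processed copies in the genome, so these counts too are uncertain. The mitochondrial genes mt-Nd1 (-0.93, SE 0.18, adjusted p = 0.00834), mt-Atp6 (-0.59) and mt-Nd2 (-0.81) were lower in NZB, and NZW mouse 2 had the highest mt-Nd1, 2218 CPM, against 707 to 1149.9 in the other mice. Antibody genes took 51.4% of plasma cell UMIs in NZW mouse 2 and 66.5% to 73.3% in the other mice. CPM of all other genes are therefore raised in NZW mouse 2, and the part of this in its mt-Nd1 was not tested. The mt-Nd1 call was lost without NZB mouse 3 (adjusted p = 0.0535), NZW mouse 2 (0.0578) or NZW mouse 3 (0.145). Malat1, a nuclear long noncoding RNA, was higher in NZB (10959.9 to 12465 CPM) than in NZW (5469 to 9759.9 CPM; 0.85, SE 0.11, adjusted p = 0.000316, edgeR). Its excess of 0.61 in NZBWF1 over NZW (SE 0.11, adjusted p = 0.0243) was lost in 16 of 27 other settings, among them without NZB mouse 1, 2 or 3, NZBWF1 mouse 2 or 3, or NZW mouse 2 (adjusted p of 0.0529 to 0.347). With no scaling beyond the total the calls between NZB and NZW of Rps3a1 (adjusted p = 0.663), Malat1 (0.561) and mt-Nd1 (0.149) were lost, and with no filter beyond 1 count those of mt-Nd1 (0.872) and Rps2 (0.0548). Rabac1, a protein of vesicle transport, completed the 16 (1.36, adjusted p = 0.0409).

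With 1.01% of all genes called between NZB and NZW and 0.126% to 0.19% in the other contrasts, a list of this size would mostly hold no called gene, and the counts are given as a description. None was called in any contrast among the 10 tested immunoglobulin constant genes, 13 plasma cell regulators, 6 genes of B-cell identity, 15 genes of survival and homing, 5 stress regulators, 5 division genes, 4 MHC class II genes, 6 immediate early genes or 4 genes of the BAFF receptors and the lupus loci. The same held for the endoplasmic reticulum: 26 folding genes, 14 of degradation, 21 of translocation, and 28 of glycosylation and transport to the Golgi. For NZB against NZW the median log2 differences of those 4 lists were 0.13, 0.06, 0.05 and -0.05, beside 0.04 over all genes. For the plasma cell regulators the median was -0.12, for survival and homing 0.18 and for MHC class II -0.23. The constant genes had a fitted median of -0.37, and -0.66 with genes at 0 in a strain set to their bound. A low count of called genes does not show that the lists were alike, since at this depth 1583 of 31053 genes could be tested and NZW had 2 mice.

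Of 72 interferon-stimulated genes 14 were tested and 3 were called in any contrast. Ly6a was higher and Bst2 and Ifitm2 lower in NZB than in NZW, where 1.01% of all genes were called. Ifitm2 was higher in NZBWF1 than in NZB and Ly6a higher in NZBWF1 than in NZW, where the share over all genes was 0.19% each, and none was called against the parents (0.126%). Their medians were -0.10, 0.28 and 0.17 in those contrasts and 0.15 against the parents. Of 5 tested MHC class I genes H2-T23 alone was called, between NZB and NZW. A list of 17 genes built around those the study singled out in these same samples, and which is therefore no independent evidence, had 9 tested members: 2 higher and 3 lower in NZB than in NZW, 3 higher in NZBWF1 than in NZB, 1 higher than in NZW and 2 higher than the mean of the parents' log values. They are Ftl1, Ftl1-ps1, Ifitm2, Ly6c2 and Gm42031.

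Whether a strain difference differed between plasma cells and Ighd B cells was tested in the same 8 mice (edgeR, mouse as a block, 5109 genes). For NZB against NZW 8 genes were called (0.157%). The contrasts of NZBWF1 with NZB, with NZW and with both parents gave 12 (0.235%), 4 (0.0783%) and 3 (0.0587%). Ly6a led: its NZB excess over NZW was 4.87 larger on the log2 scale in plasma cells than in Ighd B cells (SE 0.39, adjusted p = 6.44e-27). The Ighd B cells of the NZB mice held 5 Ly6a UMIs in all, so the size of this difference is uncertain. Plasmacytoid dendritic cells, not in this test, also had their highest Ly6a in NZB: 1159, 1713 and 1254 CPM, against 94.4, 282 and 123 CPM in NZW and 385, 272 and 482 CPM in NZBWF1. Cd52, a glycoprotein of the lymphocyte surface, stood at 2279.5, 3138 and 3832 CPM in NZB plasma cells and 2277 and 435 CPM in NZW mice 2 and 3, and its NZB against NZW difference was 2.35 larger than in Ighd B cells (SE 0.31, adjusted p = 1.17e-06). Ifitm2 was at 169, 459 and 227 CPM in NZB Ighd B cells, where it was low without being nearly missing, and its NZBWF1 against NZB difference was 3.92 larger in plasma cells (SE 0.36, adjusted p = 1.68e-23). In plasmacytoid dendritic cells Ifitm2 was at 69.6 to 173 CPM in NZB and 1046 to 1873 CPM in the other strains. In plasma cells alone Cd52 was not called (1.63, SE 0.46, adjusted p = 0.299). Leaving out 1 mouse gave 7 to 14, 3 to 24, 1 to 9 and 1 to 17 genes in the order above. The highest counts came without NZB mouse 1 (14, 21, 8 and 8) and without NZBWF1 mouse 1 (24, 9 and 17 in the 3 contrasts of NZBWF1). The lowest came without NZB mouse 3 (3 against NZB and 1 against the parents), NZBWF1 mouse 3 (7, 2 and 1), NZB mouse 2 or NZW mouse 3 (1 and 2 against NZW), and 5 were called against the parents without NZW mouse 2 or NZBWF1 mouse 2. The neutrophil-gene sums given above were higher in Ighd B cells than in plasma cells, and their part in this comparison was not tested. The median depth was 10244 UMIs in plasma cells and 1543.5 in Ighd B cells.

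A minority of plasma cells had RNA of dividing cells. After each cell was thinned to 1000 UMIs of non-antibody genes, which 289 of the 290 reached, 21 cells held at least 3 UMIs of 27 division genes and 164 held none. They were 2 and 2 cells in NZB mice 2 and 3, 3 in NZW mouse 2, 5 and 9 in NZBWF1 mice 2 and 3, and none in the other mice. Of the 21, 18 were IgM and 3 were among the 15 barcodes with over 1% of another lineage. Without thinning the shares were 10.0% to 40.0% of cells per mouse. The thinned shares did not differ by strain beyond the spread of the mice (exact permutation p = 0.529, adjusted 0.681). Mki67, a marker of cycling cells, was at 0 to 207 CPM, highest in NZW mouse 2, and was not called. In NZBWF1 mouse 3, 3 of the 48 cells with both kappa genes and 6 of the 40 with neither were among the 21.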

How the data were processed

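Single cells of 9 marrow samples were counted by the authors, per the submitters' processing notes with bcl2fastq 2.20 and Cell Ranger 3.1.0 on mm10; the deposited values are raw UMI counts of 31053 genes per barcode in 1 merged matrix, of which 68444 barcodes were called cells. The sources used here do not say whether depth was equalised in merging. The number after a barcode was read as the line of the library list, and 0 columns were without a sample. Barcodes under 1000 UMIs or 500 genes, or above 10% mitochondrial UMIs, were dropped. Ighd B cells had at least 1 UMI each of Ighd, Ms4a1 and Cd79a. Plasmacytoid dendritic cells, used for marker levels, had at least 2 UMIs of Siglech and 1 of Bst2. Doublets were not removed in the reported values. Leaving out barcodes with over 1% of other-lineage UMIs was an alternative, and no plasma cell exceeded 3 times the median UMIs.

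Counts were summed per mouse (at least 10 cells, separate mice as replicates) and fitted with edgeR 4.0.16 in R 4.3.3 (filterByExpr, TMM, robust quasi-likelihood, 1 fit for all strains, Benjamini-Hochberg over all genes tested). DESeq2 1.42.0 was the alternative. The labels do not say that equal mouse numbers share a day or batch. Deviations from the strain means correlated at 0.182 to 0.266 in the 3 same-numbered NZB and NZBWF1 pairs and at -0.121 to 0.016 in the 4 pairs with NZW, so a fit with the number as a replicate block was an alternative. The 2 fitted NZW mice have deviations that mirror each other, so the pairs with NZW cannot show whether NZW mice shared the pattern. Per-mouse measures were compared by exact permutation tests over mice in Python 3.11.15. The fitting was tested on simulated data. Sequences and positions come from GRCm38 with GENCODE vM21, which holds 30934 of the 31053 gene IDs (99.6%).

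The cells, gene lists and tests were chosen with earlier results of these data known. Genes were named by rule: the gate genes and plasma cell markers, the immunoglobulin constant genes, up to 10 called genes per contrast by smallest p, a list built around genes the study singled out, the 3 most abundant and the called members of each list, and up to 10 genes of the plasma cell against B cell difference. Rpl21, Rabac1, mt-Atp6, mt-Nd2, the genes leading by fold, the kappa variable genes and Ighv1-62 were named after their values were seen. Alternatives chosen after seeing the data were dropping the Xbp1 limit, dropping the Mzb1 and Xbp1 limits, leaving out the Igkv12-89 or Igkv4-51 cells of NZBWF1 mouse 3, and summing Ftl1 and Ftl1-ps1.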

Additional observations from a re-analysis of the deposited data

Results flagged for a closer look

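For several genes the strain difference in plasma cells was set apart from that in Ighd B cells of the same mice by the test of the difference itself (edgeR, mouse as a block). Of those that passed in any contrast, the 10 of smallest p are given. Values are the log2 strain difference in plasma cells less that in Ighd B cells. For Ly6a, with 5 UMIs in all in the NZB Ighd B cells, this was 4.87 for NZB against NZW, 2.28 for NZBWF1 against NZW (adjusted p = 2.11e-11) and -2.59 for NZBWF1 against NZB (adjusted p = 0.000278). For Ifitm2 it was -3.31 for NZB against NZW (adjusted p = 5.3e-14), 3.92 for NZBWF1 against NZB and 2.26 for NZBWF1 against the parents (adjusted p = 9.9e-14). Both genes were also called within plasma cells.

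Cd52 gave 2.35 for NZB against NZW and -1.19 for NZBWF1 against NZB (adjusted p = 0.0268). Malat1 gave 0.98 for NZB against NZW (adjusted p = 2.49e-05). Plac8, an intracellular protein of myeloid and lymphoid cells, gave -3.01 for NZB against NZW (adjusted p = 0.00309) and 2.73 for NZBWF1 against NZB (adjusted p = 5.94e-05). It was at 0, 6.40 and 18.9 CPM in NZB plasma cells, 0, 163 and 18.1 CPM in NZW and 49.2, 57.3 and 69.6 CPM in NZBWF1, so that of the NZW mice in the fit mouse 2 was high and mouse 3 lay within the NZB range, against 514 to 1334 CPM in Ighd B cells of all mice. Ly6d, a surface antigen of early B-lineage cells, gave 3.4 for NZB against NZW (adjusted p = 0.000346) and -2.37 for NZBWF1 against NZB (adjusted p = 0.0113). Ly6d was at 465 to 1165 CPM in plasma cells of all mice, while in Ighd B cells it was at 432, 115 and 266 CPM in NZB and 2549.8, 2064 and 1858 CPM in NZW.

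Slpi, a secreted protease inhibitor, gave 3.13 for NZB against NZW (adjusted p = 0.000346) and 2.34 for NZBWF1 against NZW (adjusted p = 0.0120). Ctsg, a granule protease of neutrophil precursors, gave 4.03 for NZBWF1 against NZB (adjusted p = 0.00877) and had plasma cell UMIs in 3 mice only, at 6.40, 6.14 and 33.1 CPM, too few to be tested in plasma cells alone. It entered this test through the Ighd B cells, at 5.06 to 285 CPM, so the value says little of plasma cells. Wfdc21, a neutrophil gene, gave -2.90 for NZBWF1 against NZW (adjusted p = 0.0120) and -2.17 for NZBWF1 against the parents (adjusted p = 0.0196). Alad, an enzyme of heme synthesis, gave 1.81 for NZBWF1 against the parents (adjusted p = 0.0215). In plasma cells alone, at 44.8 to 129 CPM, it was not called in that contrast (0.59, adjusted p = 0.977, edgeR). In Ighd B cells Alad was at 47.0, 134 and 227 CPM in NZB, 182, 237 and 280 CPM in NZW and 254, 37.6 and 54.6 CPM in NZBWF1. Neutrophil-gene sums were 22093 to 63555 CPM in Ighd B cells and 126 to 10412 CPM in plasma cells, and their part in the values of Slpi, Ctsg and Wfdc21 was not tested.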

How the results depend on the processing

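Directions held for the 12 called genes that were refitted: of 530 values under other settings 459 kept their call, 71 lost it and 0 reversed. Rpl21, Rabac1, mt-Atp6 and mt-Nd2 were called but not followed under other settings. Counts of called genes moved more. For NZB against NZW (16) they were 26 with no filter beyond 1 count, 25 with NZW mouse 1 included, 10 with Ftl1 and Ftl1-ps1 summed, 9 with at least 10 counts in every mouse and 8 with no scaling beyond the total, which moved the median of all genes to -0.15 (-0.05, -0.20 and -0.12 in the NZBWF1 contrasts). For NZBWF1 against NZB (3) they were 23 with no filter, 15 without the other-lineage barcodes, 8 with 20 Jchain UMIs, with a 5% mitochondrial limit or with 2000 UMIs and 1000 genes, 7 in DESeq2, 5 without antibody genes and 0 with 10 counts in every mouse. For NZBWF1 against NZW (3) they were 17 with no filter, 6 with no Xbp1 limit, 5 with NZW mouse 1 included, 5 in DESeq2 and 1 with no scaling. Against the parents (2) they were 14 with no filter, 7 in DESeq2, 5 with no Xbp1 limit, 5 with no scaling, 4 with no Mzb1 or Xbp1 limit, 4 without antibody genes, 0 with the ferritin pair summed and 0 with 10 counts in every mouse. Leaving out 1 mouse gave 11 to 18, 1 to 8, 2 to 8 and 2 to 7. The difference between plasma cells and Ighd B cells gave 0 genes in each contrast with at least 10 counts in every mouse (233 genes), and 7 to 14, 3 to 24, 1 to 9 and 1 to 17 without 1 mouse. The exact p for the share was 0.0214 with each barcode thinned to 1000 UMIs, 0.0250 without the Igkv12-89 or Igkv4-51 cells and 0.0357 to 0.175 without 1 mouse; edgeR on cell numbers of NZB against NZW alone, which is another test, gave p = 0.00288. The adjusted p for IgA was 0.157 with 20 Jchain UMIs, 0.210 with a 5% mitochondrial limit, 0.247 with 2000 UMIs and 1000 genes, 0.299 without the Xbp1 limit, 0.373 without the Mzb1 and Xbp1 limits, 0.0786 without the Igkv12-89 or Igkv4-51 cells and 0.0524 to 0.314 without 1 mouse. For IgM it was 0.0196 from summed UMIs and 0.0393 without the Igkv cells, and for kappa 0.0393 with no Siglech limit. The cause was not tested in any of these. Same-numbered NZB and NZBWF1 mice deviated together. The pairs with NZW cannot show this, since the deviations of its 2 fitted mice mirror each other. With the number as a replicate block 13, 7, 4 and 7 genes were called. In the permutation test within blocks the share had exact p = 0.0278, the smallest it can give, and IgA had adjusted p = 0.229. Without the other-lineage barcodes no NZW mouse kept 10 cells, so NZBWF1 against NZB alone could be given, and 3 stricter limits left 1 NZW mouse, which was assumed to vary like the other groups.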
